A study of Homo sapiens with 12 samples.

Results

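The genes described here are those of the ATF4 pathway and the unfolded protein response, measured in 2 human melanoma cell lines after the BRAF inhibitor vemurafenib. A list of 40 genes was chosen for their known role in these pathways, with earlier results of these data already known. A member was measured where a probe set was annotated with its current or older symbol and no other symbol, and the probe set with the highest mean over the 12 arrays stood for the gene. This gave values for 39 of the 40 members, among 18404 genes in all. CBS, the first enzyme of the route from homocysteine to cysteine, shared its probe set with a second symbol and was left out. The study measured total RNA on Affymetrix Human Gene 1.0 ST arrays, on which a probe set combines short probes from along a gene. A375, labelled A375p in the source field, and A2058 are established melanoma lines, and the labels give both the BRAF V600E allele, so every group carried the drug's target. Vemurafenib is a kinase inhibitor directed at that mutant BRAF, and DMSO is its solvent. Each line had 3 DMSO arrays and 3 arrays from cells given 1 µM vemurafenib for 72 h, with the drug renewed every 24 h. The protocol names A375p alone, so dose and time in A2058 rest on its standing on every sample.

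Cells that run short of amino acids, or whose endoplasmic reticulum fills with unfolded protein, phosphorylate the translation factor eIF2α. General translation then slows while ATF4 is translated more, and ATF4 switches on genes of amino acid synthesis and transport together with regulators such as DDIT3 and TRIB3. The kinase PERK (EIF2AK3) feeds this arm from the endoplasmic reticulum, while ATF6 and IRE1 (ERN1, which splices XBP1 mRNA) mainly drive chaperones and the degradation of misfolded protein. Because ATF4 is controlled largely through translation, and ATF6 and XBP1 through cleavage and splicing, the array reads their mRNA and not the activity of the proteins.

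Levels are given as deposited, on a log2 scale, 1 value per array, and a response is the mean with vemurafenib minus the mean with DMSO. Each SE and adjusted p is from limma, fitted on all 18404 genes with Benjamini-Hochberg adjustment, and a gene rose or fell where the adjusted p was under 0.05. The labels do not say that the 3 arrays of a group came from separate cultures, so the p-values measure the spread between these samples, which may be technical. A375 vemurafenib replicate 1 stood apart, with correlations of 0.9939 and 0.9941 to the other arrays of its group, where replicate pairs elsewhere reached 0.9978 to 0.9989. It was the array farthest from its group mean for 23 of the 39 members. Of 9 measured markers of the melanocyte lineage, 5 lay above the median gene mean of 6.063 in A375 and 8 in A2058 with DMSO, with the pigment genes MLANA, PMEL, TYR and TYRP1 below it in A375. The markers' summed log2 level ran from 73.97 to 74.5 in A2058 with DMSO and from 84.65 to 84.83 with vemurafenib, and from 59.96 to 60.61 and from 61.58 to 62.36 in A375. The summed level of 8 epithelial markers ran from 46.57 to 46.81 in A375 with DMSO and from 43.02 to 44.75 with vemurafenib, and from 43.87 to 44.37 and from 42.17 to 42.53 in A2058. KRT18 fell 3.45-fold in A375 and 2.66-fold in A2058 (adjusted p = 7.69e-08 and 1.4e-06, limma). It alone of these lay above the median gene mean in each group, and the epithelial markers EPCAM and CDH1 stayed below it. The summed level of 8 fibroblast markers ran from 38.14 to 38.76 and from 40.43 to 41.31 in A375, and from 43.24 to 44 and from 43.09 to 43.29 in A2058. In A375 LUM rose 4.43-fold, PDPN 1.55-fold and DCN 1.14-fold, and PDGFRA fell 1.40-fold. COL1A1, COL3A1, THY1 and FAP did not pass there. In A2058 LUM fell 1.33-fold and FAP 1.22-fold, and no other fibroblast marker passed. Of the fibroblast markers 1 to 3 lay above the median gene mean, of 7 immune and blood markers 1 or 2, and of 8 endothelial markers 0 or 1. LYZ, on the immune list, fell 2.41-fold in A375 and 4.36-fold in A2058. CD68 rose 1.89-fold in A375 and 1.16-fold in A2058, and the other immune and blood markers passed in neither line. Among the endothelial markers only KDR passed, with a 1.56-fold fall in A2058. The part of these markers in the results below was not tested. In bulk RNA, fewer cells of a type and less RNA per cell cannot be told apart.

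Most amino acid synthesis genes fell with vemurafenib in both lines, 8 of 9 in A2058 and 6 of 9 in A375. Of 10 ER chaperones, 5 fell in A2058 and 1 in A375, where 12.5% and 19.3% of all genes fell. In A375, 11 of 39 members rose (28.2%, against 17.7% of all genes) and 15 fell (38.5%, against 19.3%). In A2058, 4 members rose (10.3%, against 14.6% of all genes) and 23 fell (59%, against 12.5%). The median response of the members was -0.0062 in A375 and -0.25 in A2058, where the median over all genes was 0.0042 and 0.0064. The share that fell was above the background in both lines. The share that rose was above it in A375, and the 4 rises in A2058 lay near it. As the list was chosen with earlier results of these data known, these shares describe the members and are not an independent test. In A375, the vemurafenib arrays lay entirely above the DMSO arrays for 13 members (21% of all genes) and entirely below for 16 (22.6%). The same counts in A2058 were 5 above (21.9% of all genes) and 27 below (18.7%). By the adjusted p, 13 members rose and 15 fell in A375 without A375 vemurafenib replicate 1, and 5 rose and 25 fell in A2058. The A2058 calls can change too, since the spread per gene was estimated over the arrays of both lines. The counts over all 18404 genes grew as well. They went from 3265 to 3789 up and from 3551 to 3996 down in A375. In A2058 they went from 2691 to 3222 up and from 2300 to 2730 down.

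**Figure D1:**
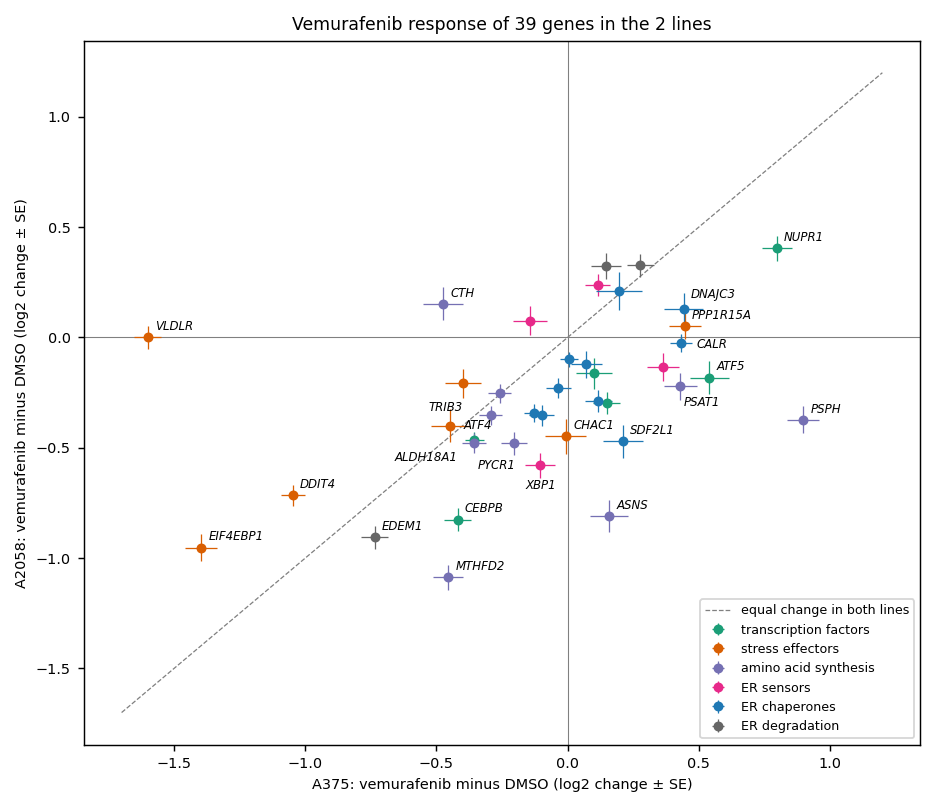
Response to vemurafenib (log2, vemurafenib minus DMSO) of each of the 39 members in A375 on the x axis and in A2058 on the y axis, coloured by role, with bars for the standard error a dashed line of equal response and names for the larger responses. VLDLR, EIF4EBP1 and DDIT4 fell furthest in A375, MTHFD2 furthest in A2058, and PSPH rose in A375 while it fell in A2058.

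In both lines 13 members fell: ATF4 (on its brighter probe set), CEBPB, TRIB3, DDIT4, EIF4EBP1, STC2, PHGDH, SHMT2, MTHFD2, ALDH18A1, PYCR1, PDIA4 and EDEM1. Of all genes, 6.85% fell in both lines. The transcription factor NUPR1 and the ER degradation adaptor SEL1L rose in both, as did 6.52% of all genes. CEBPG, PSAT1, PSPH and SDF2L1 rose in A375 and fell in A2058, a pattern shown by 1.8% of all genes, and no member fell in A375 and rose in A2058 (2.61% of all genes). CRELD2, DDIT3, DNAJB9, ERN1 and HSP90B1 passed the test in neither line, as for 53.6% of all genes. The pairs of calls depended on single arrays. Without A375 vemurafenib replicate 1, 5 members rose in both lines, with DNAJB9, EIF2AK3 and HERPUD1 added, and 2 passed in neither. The 4 that rose in A375 and fell in A2058 were then PSAT1, PSPH, ATF6 and HSPA5. Without any 1 of A375 DMSO replicate 3, A375 vemurafenib replicates 2 and 3 and A2058 DMSO replicate 3, 2 genes had that pattern, PSPH among them. The lines do not share control arrays, so these counts come from separate samples, although the spread per gene was estimated over all 12 arrays.

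Promoter sequence was examined because the pathway's factors bind short known elements: a C/EBP-ATF element read by ATF4 dimers, and ER stress elements read by ATF6 and XBP1. RefSeq windows from 250 bases before to 50 after a transcription start (GRCh38.p14) held 34 of the 39 members, in 46 windows. All motifs were searched on both strands, with N for any base. The C/EBP-ATF element TGATGNAA was in the windows of ASNS, CHAC1, HERPUD1 and CEBPG and in 3.62% of all 35116 windows. The ER stress element, CCAAT and CCACG with 9 bases between them, was in those of HSPA5, HSP90B1, PDIA6, CALR, CRELD2 and XBP1 and in 0.0769% of all windows, and the shorter form, ATTGG and CCACG with 1 base between them, in those of HERPUD1 and SDF2L1 and in 0.0541%. TGACGTGG was found in ALDH18A1 and in 0.729% of windows, and TGACGTCA in PPP1R15A and in 1.85%. A match is a description of the sequence and not a shown binding site. Among the genes with a C/EBP-ATF or ER stress element and a called change, 6 were taken in order of their largest change, at most 3 per kind of element, and the 250 bases before the start are printed 5′ to 3′ on the gene's strand, with the matched bases in capitals. They lie at chr7:97872409-97872658 on the minus strand for ASNS, chr15:40953221-40953470 on the plus strand for CHAC1 and chr16:56931892-56932141 on the plus strand for HERPUD1. The other windows are chr22:28800570-28800819 on the minus strand for XBP1, chr19:12938359-12938608 on the plus strand for CALR and chr22:21642052-21642301 on the plus strand for SDF2L1.
ASNS: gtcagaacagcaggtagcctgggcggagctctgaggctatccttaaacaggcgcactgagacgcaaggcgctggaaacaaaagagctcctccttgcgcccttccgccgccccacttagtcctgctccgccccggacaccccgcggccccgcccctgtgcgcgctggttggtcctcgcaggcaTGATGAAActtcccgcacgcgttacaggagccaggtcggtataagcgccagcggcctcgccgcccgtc
CHAC1: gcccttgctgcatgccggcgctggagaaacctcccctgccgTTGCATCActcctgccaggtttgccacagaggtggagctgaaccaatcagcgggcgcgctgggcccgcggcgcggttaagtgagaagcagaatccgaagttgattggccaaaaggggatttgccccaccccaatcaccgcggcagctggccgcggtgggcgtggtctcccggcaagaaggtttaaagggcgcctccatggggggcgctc
HERPUD1: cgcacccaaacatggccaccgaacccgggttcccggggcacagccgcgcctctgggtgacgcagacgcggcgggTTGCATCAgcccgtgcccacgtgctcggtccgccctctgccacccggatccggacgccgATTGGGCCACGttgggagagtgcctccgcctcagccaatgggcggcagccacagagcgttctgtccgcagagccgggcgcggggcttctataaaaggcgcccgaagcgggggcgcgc
XBP1: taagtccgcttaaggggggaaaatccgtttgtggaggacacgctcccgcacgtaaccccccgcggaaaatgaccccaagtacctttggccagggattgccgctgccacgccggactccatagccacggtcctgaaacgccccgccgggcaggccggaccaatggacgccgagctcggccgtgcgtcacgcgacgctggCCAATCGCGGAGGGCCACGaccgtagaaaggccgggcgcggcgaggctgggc
CALR: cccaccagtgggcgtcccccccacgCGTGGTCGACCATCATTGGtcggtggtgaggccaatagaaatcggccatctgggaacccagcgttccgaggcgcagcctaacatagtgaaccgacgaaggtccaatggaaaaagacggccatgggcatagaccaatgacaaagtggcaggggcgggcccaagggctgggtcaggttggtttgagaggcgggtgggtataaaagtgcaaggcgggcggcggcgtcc
SDF2L1: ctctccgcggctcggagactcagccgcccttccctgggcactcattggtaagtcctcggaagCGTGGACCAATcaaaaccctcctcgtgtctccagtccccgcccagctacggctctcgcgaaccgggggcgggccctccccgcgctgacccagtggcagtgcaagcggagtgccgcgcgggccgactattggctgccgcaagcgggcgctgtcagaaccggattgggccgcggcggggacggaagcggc
ASNS carried TGATGAAA with its first base 68 bases before the start, while CHAC1 and HERPUD1 carried the reverse complement TTGCATCA, 209 and 176 bases before it. HERPUD1 also carried ATTGGGCCACG, the short ER stress element, 117 bases before its start. Whether genes with the same element responded together was not tested. Of the 4 with a C/EBP-ATF element, ASNS, CHAC1 and CEBPG fell in A2058 and HERPUD1 rose, and in A375 CEBPG rose and the others did not pass. Of the 6 with the long ER stress element, HSPA5, PDIA6 and XBP1 fell in A2058 and CALR rose in A375, with no other call in either line. The A2058 response was below 0 for all 6, from -0.58 for XBP1 to -0.024 for CALR. In A375 the responses ran from -0.10 for XBP1 to 0.43 for CALR.

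Among the 6 transcription factors, CEBPB fell and NUPR1 rose in both lines, and the ATF4 mRNA gave opposite answers on its 2 probe sets. On the brighter ATF4 probe set, A375 arrays read 9.57, 9.60 and 9.56 with DMSO and 9.19, 9.23 and 9.24 with vemurafenib, and A2058 arrays read 9.58, 9.53 and 9.59 with DMSO and 9.10, 9.11 and 9.10 with vemurafenib. All vemurafenib arrays lay below all DMSO arrays, and the mRNA fell by 0.36 on the log2 scale in A375 (SE 0.035, adjusted p = 3.71e-06) and by 0.46 in A2058 (SE 0.035, adjusted p = 6.05e-07). The second ATF4 probe set, annotated to another transcript record of the gene, read 7.30, 7.14 and 7.17 with DMSO and 7.24, 7.51 and 7.67 with vemurafenib in A375. In A2058 it read 7.88, 7.93 and 7.996 with DMSO and 8.67, 8.64 and 8.68 with vemurafenib. It rose by 0.27 in A375 (adjusted p = 0.0285) and by 0.73 in A2058 (adjusted p = 3.6e-05), and its A375 vemurafenib replicate 1 fell among the DMSO arrays. With the mean of both probe sets, the ATF4 response was -0.044 in A375 (adjusted p = 0.626) and 0.13 in A2058 (adjusted p = 0.105). ATF4 has processed copies elsewhere in the genome, and neither direction of its mRNA can be taken as settled by these arrays.

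**Figure D2:**
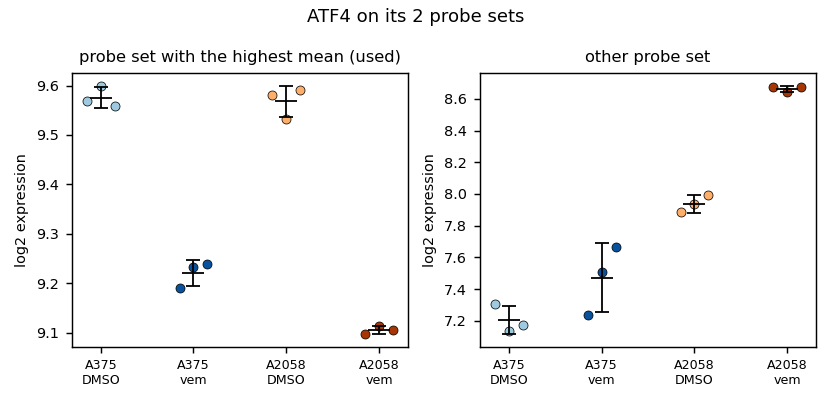
Log2 values of the 2 ATF4 probe sets on each of the 12 arrays, by line and treatment, with a panel for each probe set, the brighter on the left, and lines for the mean and SD of each group. On the left every vemurafenib array lies below every DMSO array of its line, and on the right the A2058 vemurafenib arrays lie at 8.64 to 8.68, above the A2058 DMSO arrays at 7.88 to 7.996.

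CEBPB, a C/EBP factor that pairs with ATF4, read 9.39, 9.37 and 9.41 with DMSO and 9.03, 8.99 and 8.90 with vemurafenib in A375 and 8.55, 8.58 and 8.57 with DMSO and 7.70, 7.67 and 7.85 with vemurafenib in A2058. It fell in both, by 0.42 in A375 (SE 0.052, adjusted p = 2.51e-05) and by 0.83 in A2058 (SE 0.052, adjusted p = 9.35e-08), with no overlap between the groups. NUPR1, a small stress-induced chromatin protein, read 5.05, 4.95 and 5.04 with DMSO and 5.93, 5.77 and 5.73 with vemurafenib in A375. In A2058, NUPR1 read 5.14, 5.14 and 5.24 with DMSO and 5.63, 5.58 and 5.53 with vemurafenib. It rose in both lines without overlap, by 0.80 ± 0.058 (SE) in A375 (adjusted p = 1.86e-07) and 0.40 ± 0.058 in A2058 (adjusted p = 0.000158). ATF5, an ATF4 relative controlled through translation in the same way, read 5.76, 5.62 and 5.66 with DMSO and 6.31, 6.28 and 6.08 with vemurafenib in A375. It rose there (0.54 ± 0.074 (SE), adjusted p = 6.19e-05) with every vemurafenib array above every DMSO array, while its A2058 response of -0.18 did not pass (adjusted p = 0.0943). CEBPG, another C/EBP partner of ATF4, fell in A2058 (-0.30 ± 0.05 (SE), adjusted p = 0.000607). Its rise in A375 was small (0.15 ± 0.05 (SE), adjusted p = 0.0343) and did not pass without any 1 of A375 DMSO replicates 1 or 3 or of the 3 A375 vemurafenib arrays, with adjusted p between 0.0073 and 0.153 over the 12 arrays left out in turn. DDIT3, the factor CHOP that promotes death under lasting stress, passed in neither line, at 0.10 (adjusted p = 0.327) and -0.16 (adjusted p = 0.12).

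The 7 effectors outside biosynthesis mostly fell, and they include the largest falls of any member in A375. In each line 5 of 7 fell (71.4%, against 19.3% of all genes in A375 and 12.5% in A2058). VLDLR, a lipoprotein receptor induced by ATF4, read 7.87, 7.78 and 7.79 with DMSO and 6.17, 6.27 and 6.21 with vemurafenib in A375. VLDLR fell by 1.60 on the log2 scale (SE 0.052, 3.03-fold, adjusted p = 7.45e-11), and the groups were far apart. In A2058, VLDLR read 8.53, 8.58 and 8.72 with DMSO and 8.61, 8.59 and 8.64 with vemurafenib, overlapping, with a response of 0.00012 and a 95% interval of -0.11 to 0.11. EIF4EBP1, the 4E-BP1 repressor of cap-dependent translation, read 9.62, 9.62 and 9.60 with DMSO and 8.07, 8.28 and 8.30 with vemurafenib in A375 and 9.50, 9.42 and 9.58 with DMSO and 8.58, 8.50 and 8.57 with vemurafenib in A2058. It fell 2.63-fold in A375 (-1.40 ± 0.061 (SE), adjusted p = 1.27e-09) and 1.93-fold in A2058 (-0.95 ± 0.061 (SE), adjusted p = 1.13e-07), with separate groups in each. DDIT4, the mTORC1 inhibitor REDD1, read 9.60, 9.55 and 9.58 with DMSO and 8.46, 8.53 and 8.60 with vemurafenib in A375. In A2058, DDIT4 read 9.80, 9.77 and 9.73 with DMSO and 9.004, 9.02 and 9.12 with vemurafenib. Both lines showed separate groups, and DDIT4 fell 2.07-fold in A375 (adjusted p = 1.72e-09) and 1.64-fold in A2058 (adjusted p = 1.49e-07).

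TRIB3, a pseudokinase that restrains ATF4 signalling, fell by a like amount in each line, -0.45 ± 0.075 (SE) in A375 and -0.40 ± 0.075 in A2058 (adjusted p = 0.000357 and 0.00134). CHAC1, which degrades glutathione, fell in A2058 (-0.45 ± 0.078 (SE), adjusted p = 0.000758), and its A375 arrays overlapped, with a response of -0.0062 (adjusted p = 0.968). STC2, a secreted stress-induced glycoprotein, fell in A375 (-0.40 ± 0.067 (SE), adjusted p = 0.000374). In A2058 it fell by 0.21 (adjusted p = 0.0367), a call lost without any 1 of the 3 A2058 DMSO arrays or of A2058 vemurafenib replicates 2 and 3 (adjusted p 0.0508 to 0.134). PPP1R15A, the GADD34 subunit that brings a phosphatase to eIF2α, went the other way in A375, where arrays read 7.85, 7.87 and 7.92 with DMSO and 8.37, 8.32 and 8.29 with vemurafenib. It rose there (0.45 ± 0.06 (SE), adjusted p = 5.57e-05) and its response in A2058 was 0.051 (adjusted p = 0.671). No effector rose in A2058, by the adjusted p or at an unadjusted p under 0.05 in limma.

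Of the 9 measured genes of amino acid and one-carbon synthesis, 8 fell in A2058 (88.9%, against 12.5% of all genes) and 6 in A375 (66.7%, against 19.3%). The serine pathway genes PSAT1 and PSPH rose in A375 (22.2%, against 17.7%). The median response of the 9 genes was -0.26 in A375 and -0.37 in A2058. None of the 9 rose in A2058, and none did at an unadjusted p under 0.05 in limma. MTHFD2, the mitochondrial folate enzyme, read 9.44, 9.31 and 9.45 with DMSO and 8.33, 8.28 and 8.34 with vemurafenib in A2058, where it fell 2.13-fold (-1.09 ± 0.057 (SE), adjusted p = 1.74e-08). In A375, MTHFD2 read 9.24, 9.25 and 9.22 with DMSO and 8.66, 8.83 and 8.86 with vemurafenib and fell 1.37-fold (-0.45 ± 0.057 (SE), adjusted p = 2.86e-05). The groups did not overlap in either line, and the second MTHFD2 probe set fell too, by 0.28 in A375 (adjusted p = 0.00727) and by 0.77 in A2058 (adjusted p = 3.65e-06). ASNS, which makes asparagine, read 7.09, 6.94 and 6.83 with DMSO and 6.24, 6.003 and 6.19 with vemurafenib in A2058 and 6.62, 6.65 and 6.63 with DMSO and 6.71, 6.78 and 6.87 with vemurafenib in A375. It fell 1.75-fold in A2058 (-0.81 ± 0.074 (SE), adjusted p = 3.04e-06). Its A375 vemurafenib arrays lay just above the DMSO arrays, with a response of 0.16 that did not pass (adjusted p = 0.123).

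**Figure D3:**
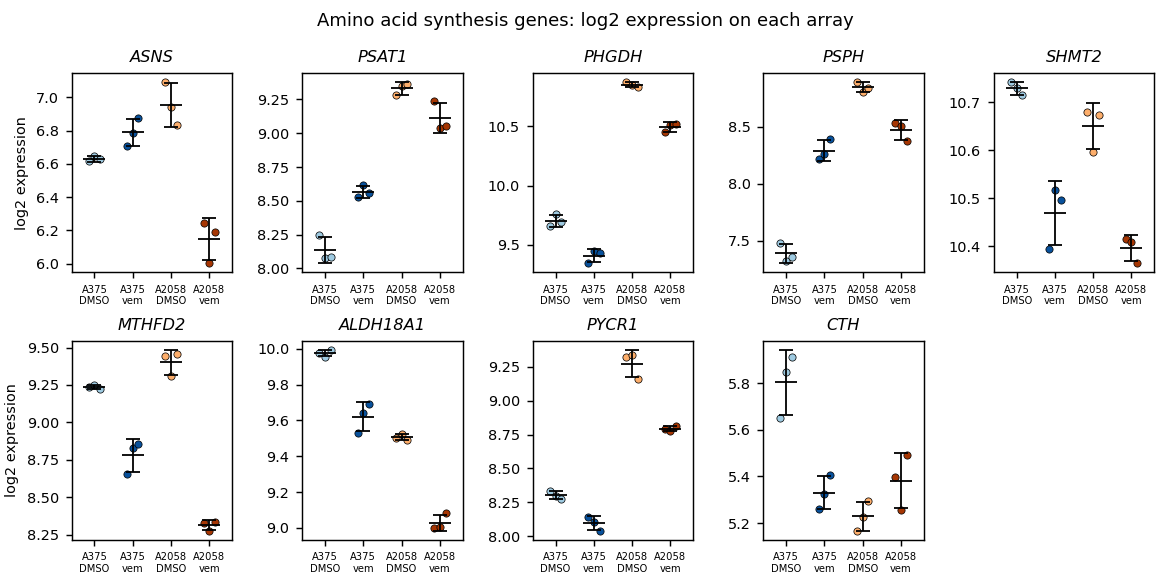
Log2 level on each array of the 9 measured genes of amino acid and one-carbon synthesis, by line and treatment (vem, vemurafenib), with lines for the mean and SD of each group and a y axis per gene. PSPH and PSAT1 move up with vemurafenib in A375 and down in A2058, and MTHFD2 and PHGDH move down in both lines.

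Serine is made from a glycolysis intermediate by PHGDH, PSAT1 and PSPH in turn, and in A375 the gene of the first step fell while those of the later steps rose. PHGDH read 9.66, 9.76 and 9.69 with DMSO and 9.35, 9.45 and 9.43 with vemurafenib in A375 and 10.87, 10.85 and 10.83 with DMSO and 10.45, 10.52 and 10.52 with vemurafenib in A2058. It fell in both lines without overlap, by 0.29 in A375 (adjusted p = 0.000126) and by 0.35 in A2058 (adjusted p = 4.47e-05). PSAT1 read 8.25, 8.08 and 8.09 with DMSO and 8.53, 8.62 and 8.56 with vemurafenib in A375 and 9.28, 9.35 and 9.37 with DMSO and 9.24, 9.04 and 9.05 with vemurafenib in A2058. It rose in A375 (0.43 ± 0.062 (SE), adjusted p = 0.000103) and fell in A2058 (-0.22 ± 0.062 (SE), adjusted p = 0.0177), the latter call being lost without any 1 of A2058 DMSO replicates 2 and 3 or A2058 vemurafenib replicates 2 and 3 (adjusted p 0.0536 to 0.0811). PSPH read 7.49, 7.33 and 7.36 with DMSO and 8.21, 8.26 and 8.39 with vemurafenib in A375. In A2058, PSPH read 8.89, 8.80 and 8.84 with DMSO and 8.53, 8.50 and 8.37 with vemurafenib. The groups were separate in each line, and PSPH rose 1.86-fold in A375 (adjusted p = 1.04e-07) and fell 1.3-fold in A2058 (adjusted p = 0.000483). On the second PSPH probe set, the A375 response was 1.1 (adjusted p = 0.000944) and the A2058 response -0.51 (adjusted p = 0.101). PSPH has near-identical copies, so its probes may read more than 1 gene.

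SHMT2 and the proline synthesis genes ALDH18A1 and PYCR1 fell in both lines. SHMT2, which turns serine into glycine in mitochondria, fell by 0.26 in A375 and by 0.25 in A2058 (adjusted p = 0.00031 and 0.000609). ALDH18A1, the first enzyme of proline synthesis, fell by 0.36 and by 0.48 (adjusted p = 3.23e-05 and 4.13e-06). PYCR1, the last enzyme of that route, fell by 0.20 in A375 and by 0.48 in A2058 (adjusted p = 0.00572 and 1.1e-05), and its A375 call was lost after quantile normalization (adjusted p = 0.0538). CTH, which completes cysteine synthesis, read 5.65, 5.85 and 5.91 with DMSO and 5.26, 5.32 and 5.40 with vemurafenib in A375, where it fell without overlap (-0.47 ± 0.076 (SE), adjusted p = 0.000233). In A2058, CTH arrays overlapped and the response was 0.15 (adjusted p = 0.184).

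Of the 4 sensor genes of the unfolded protein response, XBP1 among them, 1 rose in A375 (25%, against 17.7% of all genes) and none fell. In A2058, 1 rose (25%, against 14.6%) and 1 fell (25%, against 12.5%). ATF6, a factor released by cleavage from the Golgi membrane, read 9.81, 9.79 and 9.82 with DMSO and 10.01, 10.19 and 10.31 with vemurafenib in A375. It rose there without overlap (0.36 ± 0.063 (SE), adjusted p = 0.000434) and its response in A2058 was -0.13 (adjusted p = 0.156). In A2058 the ATF6 groups did not overlap, and the fall passed without A375 vemurafenib replicate 1 (adjusted p = 0.0292, and up to 0.397 with other arrays left out). XBP1, the factor whose mRNA IRE1 splices, read 9.43, 9.32 and 9.55 with DMSO and 8.81, 8.86 and 8.89 with vemurafenib in A2058. It fell there 1.49-fold (-0.58 ± 0.057 (SE), adjusted p = 6.48e-06), and in A375 its arrays were separate by a small margin with a response of -0.10 that did not pass (adjusted p = 0.196). The probe set does not separate spliced from unspliced XBP1 mRNA. EIF2AK3, the kinase PERK, rose in A2058 (0.24 ± 0.049 (SE), adjusted p = 0.00237). In A375 its response was 0.11 (adjusted p = 0.0886), which passed without A375 vemurafenib replicate 1 (adjusted p = 0.00618, and up to 0.308 with other arrays left out). ERN1, which encodes IRE1, did not pass in either line, at -0.14 in A375 and 0.075 in A2058. Without A375 vemurafenib replicate 1, the lower ERN1 level in A375 passed (adjusted p = 0.00606, and up to 0.329 with other arrays left out).

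Of 10 ER chaperones and folding factors, 5 fell in A2058 (50%, against 12.5% of all genes). In A375, 3 rose (30%, against 17.7%) and 1 fell (10%, against 19.3%). No chaperone rose in A2058, and 1 did at an unadjusted p under 0.05 in limma. Without A375 vemurafenib replicate 1, when more of all genes passed in each line, 4 chaperones rose in A375 and 1 rose and 6 fell in A2058. CALR, the lectin chaperone calreticulin, read 10.66, 10.62 and 10.69 with DMSO and 11.02, 11.10 and 11.14 with vemurafenib in A375 and 11.11, 11.05 and 11.10 with DMSO and 11.07, 11.04 and 11.07 with vemurafenib in A2058. It rose in A375 without overlap (0.43 ± 0.041 (SE), adjusted p = 2.55e-06), and its A2058 groups overlapped, at -0.024 (adjusted p = 0.799). DNAJC3, a co-chaperone that also inhibits PERK, read 8.71, 8.77 and 8.78 with DMSO and 8.99, 9.24 and 9.34 with vemurafenib in A375 and rose there (0.44 ± 0.075 (SE), adjusted p = 0.000368). SDF2L1, a component of the HSPA5 chaperone complex, read 6.62, 6.48 and 6.65 with DMSO and 6.08, 6.02 and 6.24 with vemurafenib in A2058, where it fell without overlap (-0.47 ± 0.076 (SE), adjusted p = 0.000432). In A375, SDF2L1 read 5.91, 5.85 and 5.65 with DMSO and 6.07, 6.02 and 5.96 with vemurafenib. Its rise there (adjusted p = 0.0461) was lost without any 1 of 8 arrays, namely A375 DMSO replicates 2 and 3, the 3 A375 vemurafenib arrays, A2058 DMSO replicates 1 and 3 and A2058 vemurafenib replicate 1 (adjusted p 0.0512 to 0.208).

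**Figure D4:**
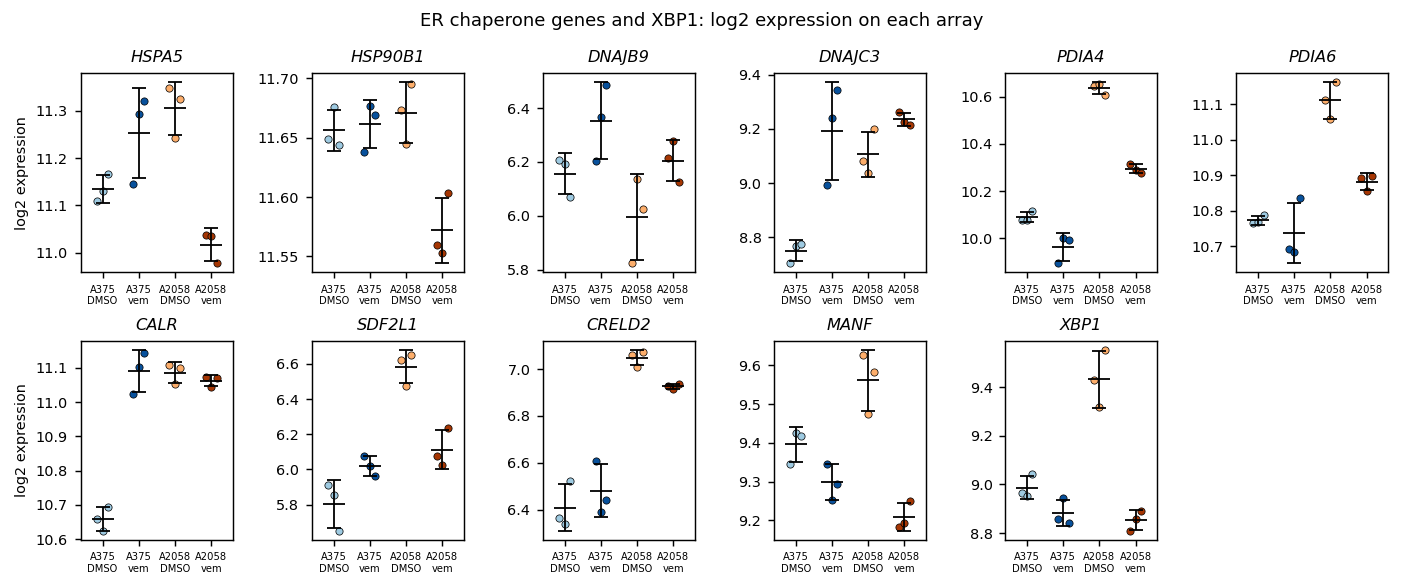
Log2 level on each array of the 10 ER chaperones and folding factors and of XBP1, by line and treatment (vem, vemurafenib), with lines for the mean and SD of each group and a y axis per gene. In A2058 the vemurafenib arrays of HSPA5, PDIA4, PDIA6, SDF2L1 and MANF all lie below the DMSO arrays, and in A375 those of CALR, DNAJC3 and SDF2L1 lie above.

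HSPA5, the ER Hsp70 also called BiP and a standard readout of ER stress, read 11.35, 11.24 and 11.33 with DMSO and 11.04, 11.04 and 10.98 with vemurafenib in A2058. It fell there by 0.29 (SE 0.051, adjusted p = 0.000813) without overlap. In A375, HSPA5 read 11.11, 11.13 and 11.17 with DMSO and 11.15, 11.29 and 11.32 with vemurafenib, overlapping, with a response of 0.12 (adjusted p = 0.0939) that passed without A375 vemurafenib replicate 1 (adjusted p = 0.0064, and up to 0.296 with other arrays left out). The disulphide isomerase PDIA4 fell by 0.34 in A2058 (adjusted p = 2.64e-05) and by 0.13 in A375 (adjusted p = 0.0231). That A375 call was lost without any 1 of A375 DMSO replicates 1 and 3 and A375 vemurafenib replicate 1 (adjusted p 0.0503 to 0.0822). PDIA6, of the same family, fell by 0.23 in A2058 (adjusted p = 0.0024), as did MANF, a secreted ER stress factor, by 0.35 (adjusted p = 0.000103). Neither PDIA6 nor MANF passed in A375, at -0.035 and -0.098. HSP90B1, the ER Hsp90 paralog GRP94, and CRELD2, a secreted ER protein, had responses of -0.099 and -0.12 in A2058 and passed in neither line (adjusted p = 0.0571 and 0.185). HSP90B1 passed in A2058 without A375 vemurafenib replicate 1 (adjusted p = 0.0409, and up to 0.167 with other arrays left out). DNAJB9, a co-chaperone that returns IRE1 to rest, had a response of 0.20 in A375 and 0.21 in A2058 (adjusted p = 0.101 and 0.101). Both DNAJB9 responses passed without A375 vemurafenib replicate 1 (adjusted p = 0.0172 and 0.0464), and that in A2058 also without A2058 DMSO replicate 2 (adjusted p = 0.0392), with values up to 0.332 and 0.396 over the other arrays.

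Of the 3 members that clear misfolded protein, EDEM1 fell and SEL1L rose in both lines, and HERPUD1 rose in A2058. EDEM1, which hands misfolded glycoproteins to degradation, read 8.91, 8.89 and 8.94 with DMSO and 8.10, 8.16 and 8.26 with vemurafenib in A375 and 8.98, 8.95 and 8.98 with DMSO and 8.01, 8.02 and 8.17 with vemurafenib in A2058. It fell 1.66-fold in A375 (adjusted p = 1.57e-07) and 1.87-fold in A2058 (adjusted p = 4.53e-08), with separate groups in each. SEL1L, the adaptor of the HRD1 ubiquitin ligase, rose in both, by 0.28 ± 0.052 (SE) in A375 and 0.33 ± 0.052 in A2058 (adjusted p = 0.000848 and 0.000382). HERPUD1, which organises the same ligase, read 9.35, 9.20 and 9.28 with DMSO and 9.64, 9.55 and 9.61 with vemurafenib in A2058 and rose there (0.32 ± 0.057 (SE), adjusted p = 0.00086). Its A375 groups did not overlap either, with a response of 0.15 that missed the threshold (adjusted p = 0.0681) and passed without A375 vemurafenib replicate 1 (adjusted p = 0.0141, and up to 0.268 with other arrays left out).

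The response itself differed between the lines for 24 of the 39 members (against 29.5% of all genes), tested as the A375 response minus the A2058 response. The A375 response was the higher for 20 members (51.3%, against 13.1% of all genes) and the lower for 4 (10.3%, against 16.4%). The median difference over the members was 0.22, and -0.0053 over all genes. Of the 10 chaperones, 9 had a positive difference and 7 passed, led by SDF2L1 at 0.68 ± 0.11 (SE, adjusted p = 0.00033), CALR at 0.46 ± 0.058 (adjusted p = 5.89e-05) and HSPA5 at 0.41 ± 0.072 (adjusted p = 0.000779). Of the 9 amino acid synthesis genes, 5 passed upward: PSPH at 1.27 ± 0.087, ASNS at 0.97 ± 0.10, PSAT1 at 0.65 ± 0.088, MTHFD2 at 0.63 ± 0.08 and PYCR1 at 0.28 ± 0.071. CTH passed downward at -0.63 ± 0.11 (adjusted p = 0.000607). VLDLR (-1.60 ± 0.073 (SE), adjusted p = 5.33e-09), EIF4EBP1 and DDIT4 were the other members whose response was lower in A375.

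**Figure D5:**
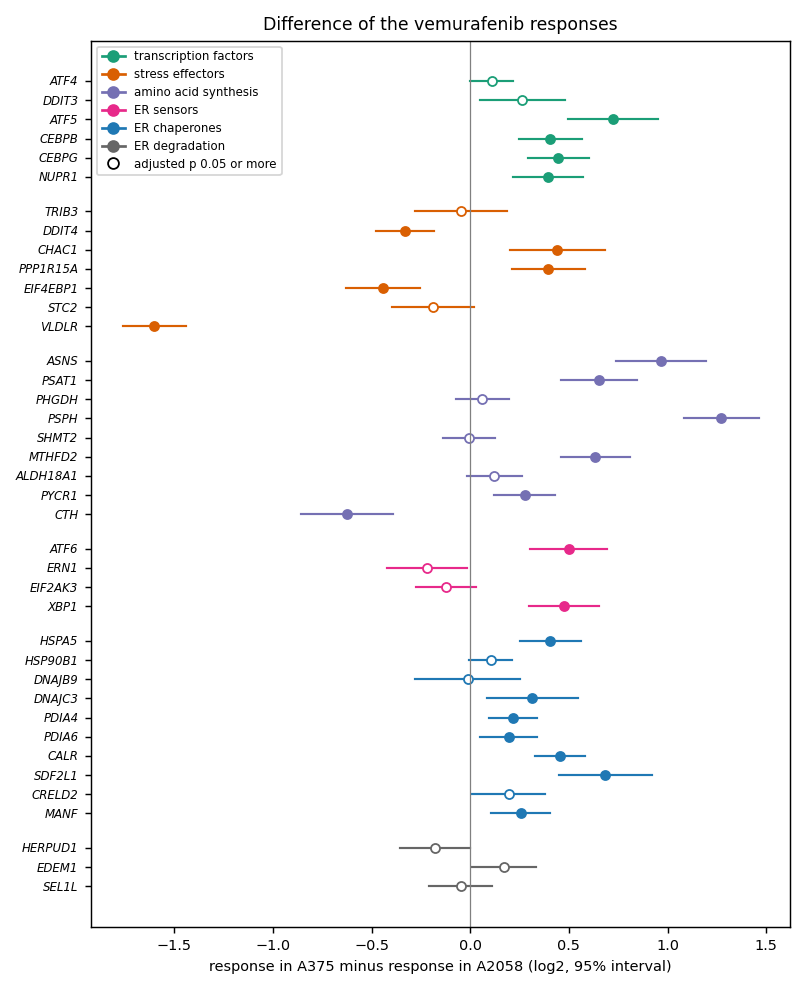
Difference between the lines in the response to vemurafenib (A375 response minus A2058 response, log2, with its 95% interval) for each member, coloured by role, with open points where the adjusted p was 0.05 or more. PSPH stands highest at 1.27 and VLDLR lowest at -1.60, and 9 of the 10 chaperones lie above 0.

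Among the members that fell in both lines, the difference did not pass for SHMT2, PHGDH, TRIB3, ATF4 (brighter probe set), ALDH18A1, EDEM1 and STC2. Its 95% interval was -0.14 to 0.13 for SHMT2, -0.074 to 0.19 for PHGDH and -0.28 to 0.18 for TRIB3, on the log2 scale. It was -0.0018 to 0.22 for ATF4, -0.017 to 0.26 for ALDH18A1, 0.0094 to 0.33 for EDEM1 and -0.40 to 0.018 for STC2. The differences of DNAJC3 and PDIA6 passed by little (adjusted p = 0.0412 and 0.044). DNAJC3 was lost without any 1 of 10 arrays, all but A375 vemurafenib replicate 1 and A2058 DMSO replicate 2 (adjusted p 0.0616 to 0.102). PDIA6 was lost without any 1 of 9 arrays, all but A375 vemurafenib replicates 1 and 2 and A2058 DMSO replicate 2 (adjusted p 0.0635 to 0.105). Without A375 vemurafenib replicate 1, 23 members passed upward and 5 downward, with ALDH18A1, DDIT3, EDEM1 and ERN1 added (adjusted p = 0.0296, 0.0116, 0.0363 and 0.00742). Over all 18404 genes, 3119 then passed upward and 3519 downward, against 2416 and 3018 with all arrays. DDIT3 also passed without A375 DMSO replicate 2 or A2058 vemurafenib replicate 3 (0.0409 and 0.0361) and EDEM1 without A2058 vemurafenib replicate 3 (0.0284). CRELD2 passed without A375 DMSO replicate 3 (0.0383), HERPUD1 without A375 vemurafenib replicate 3 (0.0356) and STC2 without A375 DMSO replicate 2 (0.0313), with values up to 0.39 over the other arrays for these 7 genes.

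With DMSO alone, A375 held less mRNA than A2058 for most members. Of 39, 7 were higher in A375 (17.9%, against 23.9% of all genes) and 23 lower (59%, against 22.5%), with a median difference of -0.17. The widest gaps lay in the serine pathway. PSPH read 7.49, 7.33 and 7.36 in A375 and 8.89, 8.80 and 8.84 in A2058 with DMSO, a 2.74-fold lower level in A375 (adjusted p = 8.29e-10). PSAT1 read 8.25, 8.08 and 8.09 in A375 and 9.28, 9.35 and 9.37 in A2058, 2.29-fold lower in A375 (adjusted p = 5.74e-09). PHGDH read 9.66, 9.76 and 9.69 in A375 and 10.87, 10.85 and 10.83 in A2058, 2.22-fold lower in A375 (adjusted p = 3.06e-10). No DMSO array of A375 reached the level of any A2058 DMSO array for these 3 genes. PYCR1 was also lower in A375 (-0.97 ± 0.05 (SE), adjusted p = 5.51e-09), while CTH and ALDH18A1 were higher, by 0.57 ± 0.076 (SE) and 0.47 ± 0.045.

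Chaperones were lower in A375 with DMSO for 8 of 10 (80%, against 22.5% of all genes). None was higher at an adjusted p or an unadjusted p under 0.05 in limma, and HSP90B1 and DNAJB9 did not pass. SDF2L1 showed the widest gap (-0.78 ± 0.076 (SE), adjusted p = 2.13e-06), then CRELD2 at -0.64, PDIA4 at -0.55 and CALR at -0.43. For HSPA5 and MANF the gap was -0.17 and -0.17 (adjusted p = 0.0142 and 0.0121), and was lost without A375 DMSO replicate 1 (adjusted p = 0.0534 and 0.0587) or A2058 DMSO replicate 1 (0.0596 and 0.0605). Among the factors, CEBPB was higher in A375 (0.83 ± 0.052 (SE), adjusted p = 3.08e-08) and XBP1 lower (-0.45 ± 0.057 (SE), adjusted p = 2.49e-05). ATF4 did not pass on the brighter probe set, at 0.0078, and was lower in A375 by 0.73 on the other (adjusted p = 1.17e-05). Calls for MTHFD2, NUPR1, PPP1R15A and STC2 were each lost without some of the arrays, with adjusted p up to 0.105, 0.149, 0.0852 and 0.0831. For MTHFD2 these were the 3 A375 DMSO arrays and A2058 DMSO replicates 1 and 3, and for NUPR1 all 6 DMSO arrays and A2058 vemurafenib replicate 2. For PPP1R15A they were A375 DMSO replicate 3 and A2058 DMSO replicate 1, and for STC2 A375 DMSO replicates 1 and 3 and A2058 DMSO replicate 2. SEL1L, which did not pass (adjusted p = 0.057), passed without A375 vemurafenib replicate 1 or 3 (adjusted p = 0.0117 and 0.0446).

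Other genes of these pathways, 82 measured of 91 listed, rose more often than they fell in A375 and fell more often than they rose in A2058. In A375, 31 rose (37.8%, against 17.7% of all genes) and 16 fell (19.5%, against 19.3%). In A2058, 9 rose (11%, against 14.6%) and 31 fell (37.8%, against 12.5%). The falls in A375 were thus at the background and the rises in A2058 near it. These further lists too were chosen with earlier results of these data known. Among 12 genes of eIF2 and its kinases and phosphatases, 5 rose (41.7%) and 3 fell (25%) in A375, and 1 rose (8.33%) and 5 fell (41.7%) in A2058, to be read against the same shares of all genes. EIF2AK2, the eIF2α kinase PKR that senses double-stranded RNA and is induced by interferon, rose 2.92-fold in A375 (1.55 ± 0.067 (SE), adjusted p = 1.2e-09). In A2058 its response was -0.17 (adjusted p = 0.0833), which passed without A375 vemurafenib replicate 1 (adjusted p = 0.0236) or A2058 DMSO replicate 2 (adjusted p = 0.0342). PPP1R15B, the constitutive partner of the eIF2α phosphatase, rose in A375 (0.51 ± 0.05 (SE), adjusted p = 3.41e-06) and fell in A2058 (-0.24 ± 0.05 (SE), adjusted p = 0.00287). EIF2B2, a subunit of the eIF2 exchange factor, fell in both, by 0.45 and by 0.32 (adjusted p = 2.54e-06 and 0.000105). Of the eIF2 subunits, EIF2S3 fell by 0.39 in A375 and EIF2S2 by 0.40 in A2058, and the haem-regulated kinase EIF2AK1 rose by 0.15 in A2058 (adjusted p = 1.14e-05, 1.17e-05 and 0.00714). With each array left out in turn, the EIF2S3 response in A2058 ran from -0.17 to -0.093 (adjusted p 0.0158 to 0.193).

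Of 19 further genes known as ATF4 targets, 4 rose (21.1%, against 17.7% of all genes) and 7 fell (36.8%, against 19.3%) in A375. In A2058, 2 rose (10.5%, against 14.6%) and 9 fell (47.4%, against 12.5%), so the rises lay near the background in both lines. PMAIP1, the pro-death protein NOXA, fell 2.13-fold in A375 (adjusted p = 5.83e-09) and 6.06-fold in A2058 (adjusted p = 5.5e-12). VEGFA, the angiogenic growth factor, fell 3.83-fold in A2058 (adjusted p = 2.69e-10), and MTHFD1L, a mitochondrial folate enzyme, fell 1.97-fold in A375 (adjusted p = 5.13e-07). Each fell in the other line too. With vemurafenib VEGFA went from a mean of 8.31 to 7.73 in A375, and MTHFD1L from 8.02 to 7.34 in A2058. With any 1 array left out, the adjusted p reached at most 8.41e-05 and 0.000269. The C/EBP factor CEBPD rose in both lines, by 0.67 and 1.02 (adjusted p = 1.91e-07 and 7.66e-09). The stress factor ATF3 rose by 0.75 in A375 (adjusted p = 6e-07), and the lipid enzyme LPIN1 by 0.76 in A2058 (adjusted p = 1.9e-08). LPIN1 rose in A375 too, from a mean of 8.28 to 8.60 (adjusted p up to 0.000325 with any 1 array left out).

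Among 26 further folding and transport genes of the endoplasmic reticulum, 8 rose (30.8%, against 17.7% of all genes) and 6 fell (23.1%, against 19.3%) in A375. In A2058, 2 rose (7.69%, against 14.6%) and 12 fell (46.2%, against 12.5%). ERO1B, an oxidase that drives disulphide formation, fell 1.83-fold in A375 and 6.06-fold in A2058 (adjusted p = 2.99e-06 and 2.5e-10). The HSPA5 co-chaperones DNAJB11 and DNAJC10 rose in A375, by 0.26 and 0.29, and fell in A2058, by 0.38 and by 0.33. The thiol chaperone ERP44 did the same, with 0.47 and -0.20, and so did the chaperone HYOU1, with 0.17 and -0.33, and the vesicle coat gene SEC24D, with 0.16 and -0.23. Adjusted p for these 5 genes ran from 7.72e-07 to 0.0254. The A375 calls of HYOU1 (without any 1 of A375 DMSO and A375 vemurafenib replicates 1 and 2, adjusted p 0.0601 to 0.0854) and SEC24D (without any 1 of A375 DMSO replicate 2 and A375 vemurafenib replicates 2 and 3, adjusted p 0.0637 to 0.0878) were lost on leaving out an array. KDELR3, a receptor that returns chaperones to the endoplasmic reticulum, ran opposite, at -0.52 in A375 and 0.35 in A2058 (adjusted p = 8.24e-06 and 0.000426). The cargo receptor LMAN1 fell by 0.60 in A2058 (adjusted p = 5.16e-05), and the prolyl isomerase FKBP14 rose by 0.40 in A375 (adjusted p = 0.000499). LMAN1 fell in A375 too, from a mean of 10.59 to 10.15 (adjusted p up to 0.00298 with any 1 array left out). WFS1, an ER membrane protein, rose by 0.19 in A2058 (adjusted p = 0.0484), which was lost without any 1 of 8 arrays, the 6 DMSO arrays and A2058 vemurafenib replicates 2 and 3 (adjusted p 0.0611 to 0.193).

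Genes of ER degradation and the remaining sensors were listed together with the cell death regulators BAX, BAK1 and TMBIM6. These 25 genes gave 14 rises and no fall in A375, where 1 fell at an unadjusted p under 0.05 in limma. In A2058 they gave 4 rises and 5 falls. These are 56% rising in A375, against 17.7% of all genes, and in A2058 16% rising and 20% falling, against 14.6% and 12.5%. In A375 the mean went from 8.38 to 8.75 for BAX, from 7.74 to 8.21 for BAK1 and from 11.47 to 11.76 for TMBIM6. EDEM3, a mannosidase of the EDEM family, and UBE2G2, a ubiquitin-conjugating enzyme of ER degradation, rose in A375 by 0.63 and 0.60 (adjusted p = 4.71e-06 and 7.77e-06). EDEM1, the member of that family among the 39, fell in the same arrays. The lectin OS9 and the HERPUD1 relative HERPUD2 rose in A2058 by 0.46 and 0.31 (adjusted p = 1.11e-05 and 0.000105), and the membrane-bound factor CREB3L2 fell by 0.31 (adjusted p = 0.000911). OS9 rose in A375 too, from a mean of 9.66 to 10.02 (adjusted p up to 0.000608 with any 1 array left out). The HERPUD2 response in A375 then ran from 0.10 to 0.17 (adjusted p 0.008 to 0.0758). UFD1, which helps pull misfolded protein out of the membrane, fell by 0.25 in A2058 (adjusted p = 0.00952). It rose by 0.18 in A375 (adjusted p = 0.0422), a call lost without any 1 of 7 arrays, A375 DMSO and A375 vemurafenib replicates 1 and 3, A2058 DMSO replicates 1 and 3 and A2058 vemurafenib replicate 2 (adjusted p 0.0518 to 0.166).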

How the data were processed

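Total RNA was measured on 12 arrays, 3 in each of 4 groups taken from the sample titles. The deposited values are log2 expression values per probe set, and the authors used R 3.0.1 and affy, per the submitters' processing notes. How background was corrected and probes were summarised is not given in the sources used here, and the log2 scale was read from the values. Arrays compress dim signals, which understates changes there, and the small number of arrays limits precision. Probe sets with 1 symbol (19158 of 32321) were named from the platform annotation and updated through RefSeq (GRCh38.p14, 19128 matched), which left 18404 genes. One model of 4 group means was fitted with limma 3.58.1 in R 4.3.3 and tested on simulated data. The members and lists were chosen with earlier results of these data known. All members are named, with up to 2 called genes per direction, line and further pathway list and any called in opposite directions. Deviations of same-numbered arrays from their group means had correlations from -0.395 to 0.351, of either sign. With 3 arrays per group these cannot show whether the numbers pair the samples, and the main model used no pairing. Alternatives were other probe sets, scalings, filters, shrinkage, array weights, a block, single lines and each array left out.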

Additional observations from a re-analysis of the deposited data

Results flagged for a closer look

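The responses to vemurafenib differed between A375 and A2058 for 24 members (limma interaction term, Benjamini-Hochberg adjusted p under 0.05). Values are the A375 response minus the A2058 response on the log2 scale. Among the transcription factors, the difference was 0.72 for ATF5, 0.41 for CEBPB, 0.45 for CEBPG and 0.39 for NUPR1. Effectors differed by 0.44 for CHAC1, 0.40 for PPP1R15A, -0.33 for DDIT4, -0.44 for EIF4EBP1 and -1.60 for VLDLR. In amino acid synthesis the values were 1.27 for PSPH, 0.97 for ASNS, 0.65 for PSAT1, 0.63 for MTHFD2, 0.28 for PYCR1 and -0.63 for CTH. ATF6 differed by 0.50 and XBP1 by 0.47. Chaperones differed by 0.68 for SDF2L1, 0.46 for CALR, 0.41 for HSPA5, 0.31 for DNAJC3, 0.25 for MANF, 0.22 for PDIA4 and 0.19 for PDIA6. Adjusted p ran from 5.33e-09 for VLDLR to 0.044 for PDIA6.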

How the results depend on the processing

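ATF4 was the member whose direction turned. With the mean of its probe sets the A2058 response was 0.13 and the DMSO difference -0.36. On the other probe set, an alternative chosen after seeing the data, the values were 0.27 in A375, 0.73 in A2058, -0.46 for the difference of responses and -0.73 between lines with DMSO, and the cause was not tested. Of the counts, chaperones falling in A375 numbered 0 after centring arrays on their median, 0 with the arrays of 1 line and 2 with array weights, against 1. Chaperones rising numbered 2 in A2058 and chaperones higher in A375 with DMSO 1 under array weights, against 0. With dim genes removed, fewer genes were tested: amino acid synthesis genes with a lower A375 response numbered 0 against 1, and those higher in A375 with DMSO 1 against 2. Leaving out 1 array, members rising in A375 ranged from 9 to 13 and falling from 14 to 15. Chaperones rising there ranged from 2 to 4 and falling from 0 to 1. In A2058, members rising ranged from 4 to 5 and falling from 21 to 25, and chaperones rising from 0 to 1 and falling from 5 to 6. Members with a higher A375 response ranged from 18 to 23 and a lower from 4 to 5, and with DMSO from 5 to 7 and from 19 to 24. With replicate number as a block, 9 members rose and 15 fell in A375 and 4 rose and 23 fell in A2058, with the A375 rises of CEBPG (adjusted p = 0.0535) and SDF2L1 (0.0634) lost and no other call of a member changed. Among other lost calls were CEBPG, PDIA4 and SDF2L1 in A375 when centred or with the arrays of 1 line, CEBPG and SDF2L1 there with trended shrinkage, and the differences of DNAJC3 and PDIA6 when centred. Of the members, STC2, NUPR1, CHAC1, CTH and ATF5 lay below the median gene mean of 6.063 with DMSO in both lines, where arrays compress differences.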
